A study of Homo sapiens with 8 samples.

Results

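The genes of the miRNA silencing machinery described here are the 4 Argonautes AGO1, AGO2, AGO3 and AGO4, the Argonaute-binding scaffold genes TNRC6A, TNRC6B and TNRC6C, the pre-miRNA nuclease gene DICER1, and DROSHA and DGCR8, whose proteins form the Microprocessor. They are defined by name, with no threshold on their values, although the set was proposed with results of these data known, and every array probe assigned to 1 of these 10 genes was taken, which gave 17 of the 41000 probes on the array. In all, 16557 genes were named by at least 1 probe. The study immunoprecipitated Ago2 together with its bound RNA (Ago2-IP) from KM-H2, a Hodgkin lymphoma cell line with abundant miR-155, and compared the IP fraction with total RNA (T) on microarrays. KM-H2 cells carried either the empty retroviral vector pMSCV-PIG (EV) or that vector with the sponge construct (miR-155-sp, here also sponge cells). Its transcript carries repeated binding sites meant to titrate miR-155. The study proposes that the sponge did not capture all miR-155 in these cells. Both populations were transduced pools sorted for the vector's GFP, the control thus carrying the vector as well, and the IP used a monoclonal anti-Ago2 antibody. Each of the 4 RNA samples (T and IP of either population) was labelled once with Cy3 and once with Cy5, and each array held the IP and the T of one population in opposite dyes.

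There was 1 RNA sample per group, so no test was possible and no difference below was checked in replicates; the 2 labellings show technical spread only. An IgG control IP was not analysed here.

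A miRNA is cut from its primary transcript in the nucleus by DROSHA with its RNA-binding partner DGCR8, cut again in the cytoplasm by DICER1, and loaded into an Argonaute, which it guides to mRNAs that pair with its seed. TNRC6 proteins (GW182 in flies) bind the Argonaute and recruit deadenylases to the bound mRNA. The machinery is itself under miRNA control: DICER1 mRNA is a known target of let-7 and of miR-103 and miR-107, and DROSHA cleaves hairpins in the DGCR8 mRNA. Ago2-IP captures the mRNAs held by the protein and not the protein, so the signals below report how far the mRNA that encodes each factor was itself found in the IP.

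The mature sequences are shown for miR-155-5p, which the sponge binds, and for 3 miRNAs known as background to target DICER1. They are from RefSeq (GRCh38.p14), 5′ to 3′, with the seed (bases 2 to 8) in capitals.
hsa-miR-155-5p: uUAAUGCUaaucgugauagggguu
hsa-let-7a-5p: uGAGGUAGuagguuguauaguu
hsa-miR-103a-3p: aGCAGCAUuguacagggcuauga
hsa-miR-107: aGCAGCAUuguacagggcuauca
MiR-103a-3p and miR-107 share the seed GCAGCAU, while the seeds of miR-155-5p and let-7a-5p each differ from it. The miR-155-5p strand lies at chr21:25573983-25574006 on the plus strand. No binding site for these miRNAs was searched for in the mRNAs below.

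All 7 Hodgkin lymphoma marker genes (TNFRSF8, FUT4, CCL17, TRAF1, IRF4, FSCN1 and MIR155HG) were well above background in both EV total labellings, as the detection flag of the scanner software defines it. Of 5 genes in each other list, this held for 1 B-cell gene (CD79A, but not MS4A1 or PAX5), 1 T-cell gene (CD2) and 3 myeloid genes (CD14, CSF1R and ITGAM). Between 38.8% and 61.9% of the gene spots per channel were well above background, the Cy5 channels being the lower ones. Retained probes had to exceed background in 4 or more of the 8 channels and to have labellings within 2-fold in every sample, which left 17912 probes. Of the 17 probes of the miRNA machinery 12 were retained, for 8 genes. Each of the 12 was well above background in the Cy3 labelling of all 4 samples. The signals of all 17 are shown by channel, on the log2 scale after quantile normalization.

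**Figure D1:**
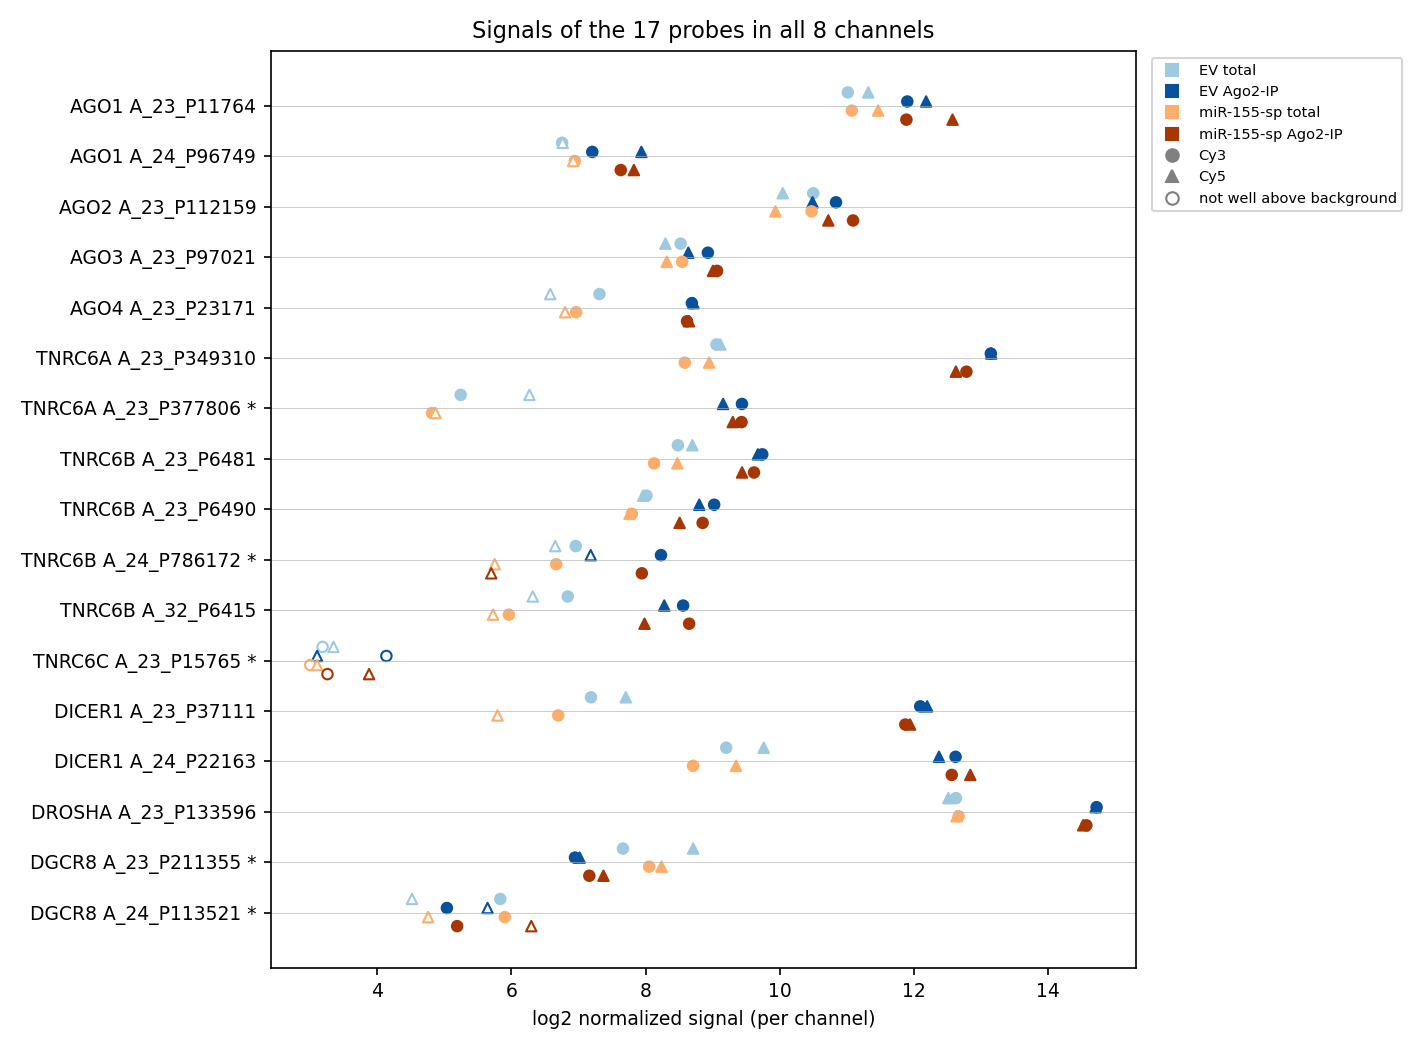
Log2 normalized signal (x axis) of the 17 probes (y axis) in each of the 8 channels, circles for Cy3 and triangles for Cy5, open where the channel was not well above background, with an asterisk on the 5 probes that were not retained. The IP signals of both DICER1 probes, of TNRC6A and of DROSHA lie to the right of the T signals, and TNRC6C has open symbols only.

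In EV cells, the mRNAs of DICER1, TNRC6A and DROSHA stood at least 4-fold higher in the Ago2-IP than in T. AGO4 and 2 of the 3 retained TNRC6B probes were between 2- and 4-fold, and AGO1, AGO2 and AGO3 under 2-fold, an order that did not hold after another background correction (normexp with loess), where AGO1 A_23_P11764 (log2 IP/T 0.99) lay above AGO4 (0.63) and the retained TNRC6B probes (0.55 to 0.73). With the IP/T ratio of ≥2 that the study took as IP enrichment, 14.8% of all retained probes were called in EV cells and 15.6% in sponge cells. Of the 12 retained probes of the machinery, 7 were called in EV cells and the same 7 in sponge cells. These 7 probes belonged to AGO4, TNRC6A, TNRC6B, DICER1 and DROSHA, and each passed the ratio in both dye orientations, for which the background was 12.3% in EV cells and 12.9% in sponge cells. A ratio of 4 or more was found for 4 of the 12 in either population (background 5.91% in EV cells and 6.31% in sponge cells), with DROSHA among them in EV cells and TNRC6B in its place in sponge cells. A ratio of 8 or more was found for 3 of the 12 (background 2.15% and 2.36%), both DICER1 probes and TNRC6A in either population. None of the 12 had a ratio of 0.5 or less in either population, where the background was 12.9% in EV cells and 14.1% in sponge cells. The log2 IP/T of these 12 had medians of 1.44 (EV) and 1.49 (miR-155-sp), beside medians of -0.24 and -0.26 over all retained probes. Ratios of the dim probes among them were smaller after normexp, as stated for each gene below, and that correction also moved the median over all retained probes in EV cells from -0.24 to -0.01 (with loess) or -0.08 (with quantile normalization).

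**Figure D2:**
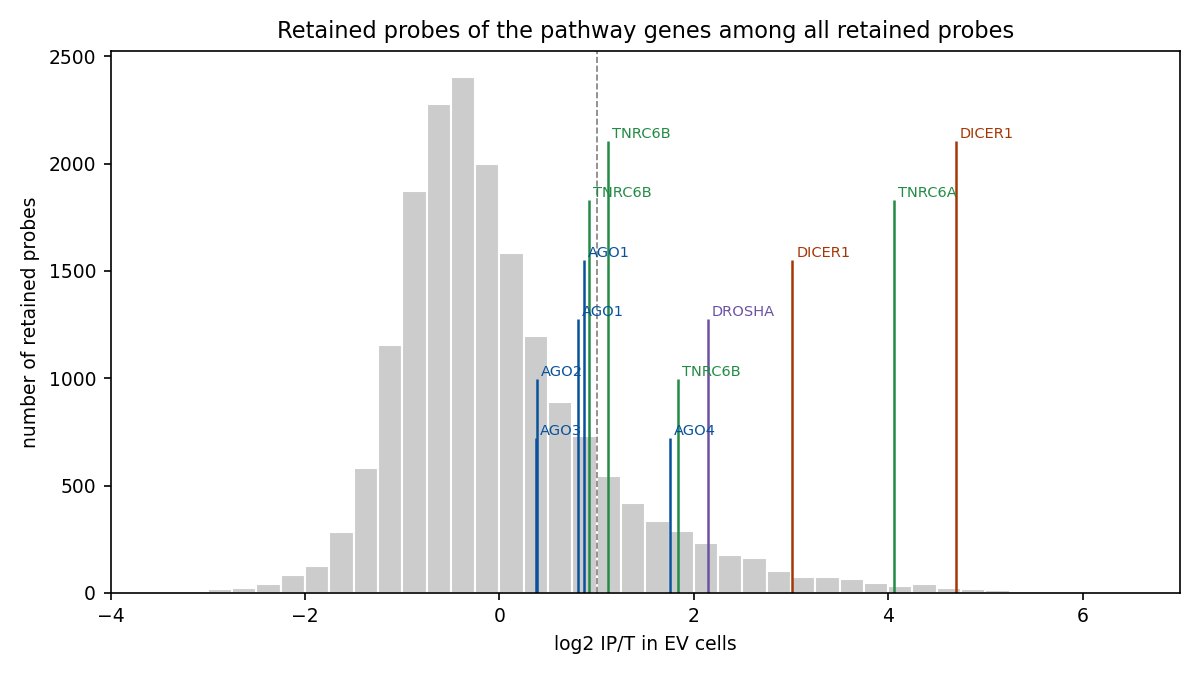
Number of retained probes (y axis) by log2 IP/T in EV cells (x axis), with a coloured line at the value of each retained probe of the miRNA machinery (line height only separates the labels) and a dashed line at 2-fold. The bulk of all probes lies below 0, and all 12 marked probes lie above it, from 0.37 (AGO3) to 4.70 (DICER1).

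AGO2 encodes the Argonaute that was precipitated, the one human Argonaute best known for slicing its target RNA. The log2 signal of its probe in EV cells was 10.50 (Cy3) and 10.04 (Cy5) in T and 10.84 and 10.49 in the IP. In sponge cells it was 10.47 and 9.94 in T and 11.09 and 10.72 in the IP. All 8 channels were well above background, and within each dye the IP was above T. On single arrays, which set one dye against the other, the IP/T ratio in EV cells was 0.993 with the IP in Cy5 and 1.73 with the IP in Cy3, with a mean of 1.31 (geometric, as for all means of ratios here). It thus sat on either side of 1 depending on the orientation. In sponge cells the orientations gave 1.19 and 2.23, with a mean of 1.63. The AGO2 ratio exceeded that of 73.5% of the retained probes in EV cells and of 79.5% in sponge cells.

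The other Argonautes bind miRNAs too but are not the usual slicers, and AGO1, AGO3 and AGO4 are neighbours on chromosome 1. AGO1 was measured by 2 probes that lay close together, with IP/T ratios in EV cells of 1.83 (orientations 2.24 and 1.5; the first value is always that with the IP in Cy5) for A_23_P11764 and of 1.75 (2.27 and 1.36) for A_24_P96749. Both exceeded 2 in one orientation only. The second probe was not well above background in the Cy5 labelling of either T sample. In sponge cells the ratios of these probes were 1.95 (2.83 and 1.34) and 1.73 (1.84 and 1.63).

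AGO3 had an IP/T ratio of 1.30 (1.08 and 1.55) in EV cells, with all 8 channels well above background. In sponge cells its ratio was 1.52 (1.37 and 1.68). For AGO4 the log2 signal in EV cells was 7.31 (Cy3) and 6.58 (Cy5) in T and 8.69 and 8.71 in the IP, and in sponge cells 6.97 and 6.80 in T and 8.62 and 8.65 in the IP. The groups did not overlap, but the Cy5 labelling of T was not well above background in either population. The AGO4 ratio was 3.38 (2.64 and 4.32) in EV cells and 3.36 (3.21 and 3.52) in sponge cells, above 92.5% and 92.0% of the retained probes. After normexp with loess its log2 IP/T in EV cells was 0.63 in place of 1.76, and with quantile normalization 0.78, both under 2-fold. Although AGO4 had the highest ratio of the Argonautes in the main processing, AGO1 A_23_P11764 lay above it after normexp, at 0.99 with loess and 0.81 with quantile normalization, and in sponge cells with loess AGO4 (0.43) was the lowest but for 1 AGO1 probe (0.30). The log2 IP/T of AGO1, AGO2 and AGO3 was above 0 in both populations under every scaling, AGO2 in EV cells with the IP in Cy5 alone (-0.01) being the exception.

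**Figure D3:**
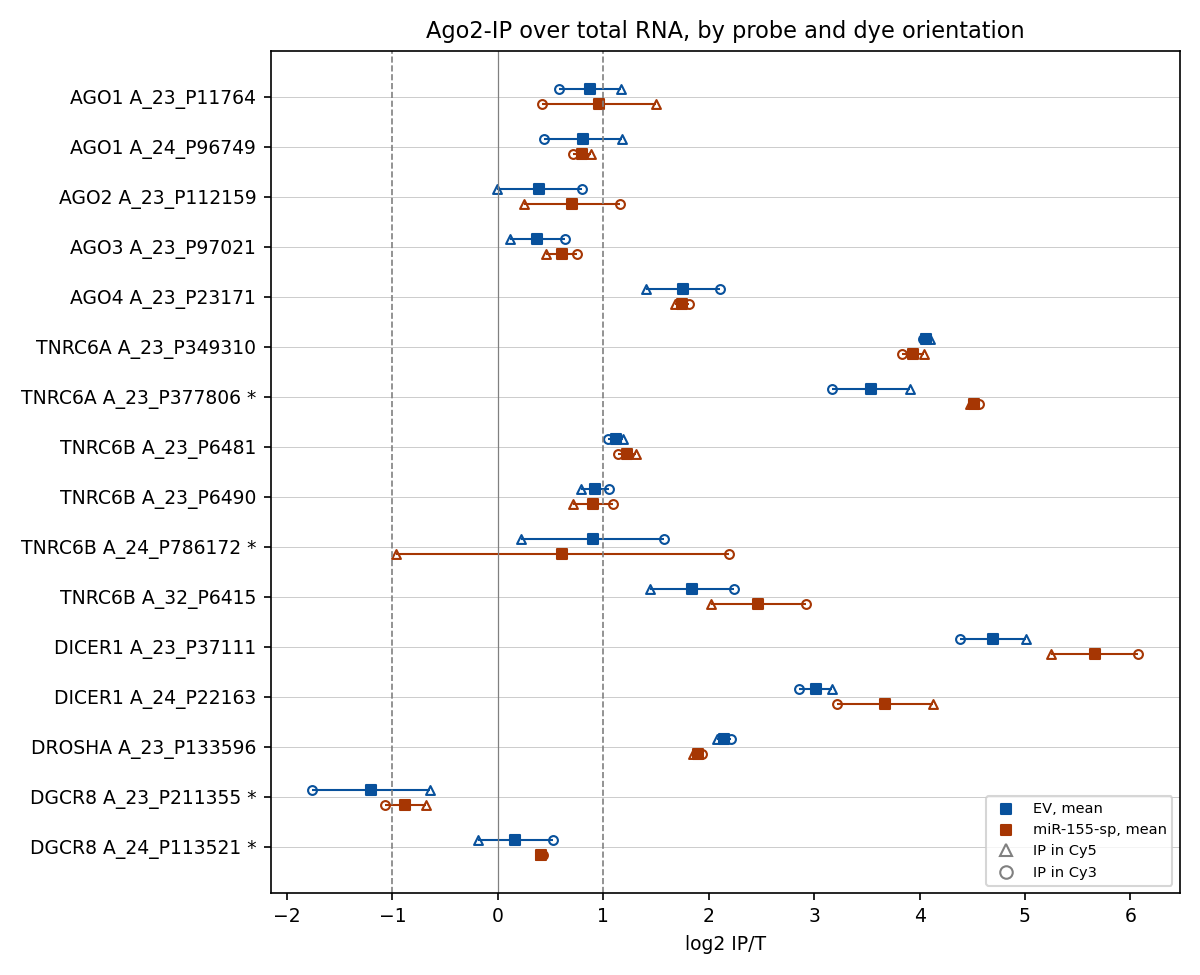
Log2 IP/T (x axis) of the 16 probes above background in any channel (y axis) in EV and sponge cells, squares for the mean and open symbols for the single dye orientations, joined by a line, with dashed lines at 2-fold and an asterisk on the 4 probes not retained. DICER1 and TNRC6A lie farthest to the right and the DGCR8 probe A_23_P211355 to the left of 0.

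TNRC6A, TNRC6B and TNRC6C encode the scaffolds that join Argonaute to the CCR4-NOT and PAN2-PAN3 deadenylases. The TNRC6A probe A_23_P349310 had a log2 signal in EV cells of 9.06 (Cy3) and 9.11 (Cy5) in T and of 13.14 and 13.15 in the IP. In sponge cells it was 8.58 and 8.95 in T and 12.78 and 12.62 in the IP. All channels were well above background and the IP and T signals were far apart. The IP/T ratio was 16.7 (17.1 and 16.4) in EV cells and 15.3 (16.4 and 14.3) in sponge cells, above 99.3% and 99.1% of the retained probes. After normexp with loess its log2 IP/T in EV cells was 3.48 in place of 4.06. A second TNRC6A probe, A_23_P377806, was not retained since its labellings of EV total differed by over 2-fold, and its Cy5 signal was not well above background in either T sample. It gave ratios of 11.6 (15.0 and 8.98) in EV cells and 23.0 (22.3 and 23.6) in sponge cells. These also lay past 2-fold under every alternative in which the probe had a value, which leaves out the deposited values and filters that it failed.

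The 4 probes of TNRC6B gave lower ratios than those of TNRC6A. A_23_P6481 read 8.48 (Cy3) and 8.70 (Cy5) in T and 9.74 and 9.67 in the IP of EV cells, and 8.13 and 8.47 in T and 9.62 and 9.44 in the IP of sponge cells. Its ratio was 2.17 (2.28 and 2.06) in EV cells and 2.34 (2.48 and 2.21) in sponge cells. A_23_P6490 lay just under 2-fold at 1.89 (1.72 and 2.08) and 1.87 (1.64 and 2.13).

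The dimmer TNRC6B probe A_32_P6415 gave 3.58 (2.71 and 4.72) in EV cells and 5.55 (4.06 and 7.58) in sponge cells, with the Cy5 labelling of both T samples not well above background. The 3 retained probes of TNRC6B thus differed by up to 1.89-fold among themselves in EV cells and 2.97-fold in sponge cells. After normexp with loess the log2 IP/T in EV cells was 0.73 in place of 1.12 for A_23_P6481 and 0.55 in place of 1.84 for A_32_P6415, both under 2-fold. The fourth probe, A_24_P786172, was well above background in Cy3 alone and was not retained, and its orientations lay far apart (1.17 and 2.98 in EV cells, 0.511 and 4.57 in sponge cells). The TNRC6C probe was not well above background in any of the 8 channels, so no ratio is given for it.

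DICER1, which encodes the nuclease that makes the mature miRNA duplex, was measured by 2 probes that were both at least 8-fold higher in the IP. Its probe A_23_P37111 read, on the log2 scale, 7.19 (Cy3) and 7.70 (Cy5) in T and 12.09 and 12.20 in the IP of EV cells. In sponge cells it read 6.70 and 5.79 in T and 11.87 and 11.94 in the IP. The IP signals lay close together while those of T spread, and the Cy5 labelling of miR-155-sp total, the lowest, was the single channel of the 8 that was not well above background. The IP/T ratio of this probe was 26.0 (32.2 and 20.9) in EV cells and 50.5 (37.9 and 67.5) in sponge cells, above 99.8% and nearly all (99.98%) of the retained probes. The probe A_24_P22163, well above background in all 8 channels, read 9.20 and 9.76 in T and 12.62 and 12.37 in the IP of EV cells, and 8.71 and 9.35 in T and 12.56 and 12.84 in the IP of sponge cells. Its ratio was 8.08 (9.0 and 7.25) in EV cells and 12.8 (17.5 and 9.28) in sponge cells.

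The 2 DICER1 probes, both far past 2-fold, differed from each other by 3.21-fold in EV cells and 3.96-fold in sponge cells. After normexp with loess the log2 IP/T in EV cells was 3.14 in place of 4.70 for A_23_P37111 and 2.57 in place of 3.01 for A_24_P22163, so that both stayed past 2-fold but below TNRC6A A_23_P349310 (3.48), although neither passed the filter on labellings after that correction.

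DROSHA encodes the nuclear nuclease that releases the pre-miRNA hairpin. Its probe gave a log2 signal of 12.63 (Cy3) and 12.51 (Cy5) in T and 14.72 and 14.71 in the IP of EV cells, and of 12.67 and 12.63 in T and 14.57 and 14.52 in the IP of sponge cells. All channels were well above background, and IP and T did not overlap. Its IP/T ratio was 4.42 (4.23 and 4.62) in EV cells and 3.72 (3.62 and 3.82) in sponge cells. The log2 ratio in EV cells, 2.14, was 2.08 after normexp with loess and 2.01 with quantile normalization.

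DGCR8, the partner of DROSHA, stood apart from it. The DGCR8 probe A_23_P211355 read 7.66 (Cy3) and 8.71 (Cy5) in T and 6.95 and 7.02 in the IP of EV cells, and 8.05 and 8.24 in T and 7.16 and 7.37 in the IP of sponge cells. All 8 channels were well above background and every IP signal was below every T signal, but the labellings of EV total were over 2-fold apart, so the probe was not retained. Its ratio was 0.434 (0.640 and 0.295) in EV cells and 0.544 (0.624 and 0.475) in sponge cells. After normexp with loess its log2 IP/T was -0.13 in place of -1.20 in EV cells. The other DGCR8 probe, A_24_P113521, was well above background in Cy3 alone, was not retained, and gave 1.12 (0.877 and 1.43) in EV cells and 1.33 (1.31 and 1.35) in sponge cells.

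The second question of the design was whether these mRNAs differed between miR-155-sp and EV cells. None of the 12 retained probes had an IP/T ratio that differed by 2-fold or more, with backgrounds of 0.748% for a higher and 0.698% for a lower ratio in sponge cells. In both dye orientations the ratio was higher in sponge cells for 6 of the 12 (AGO2, AGO3, both DICER1 probes and 2 of TNRC6B; background 30.6%) and lower for 2 (DROSHA and TNRC6A; background 30.3%). The log2 difference for AGO2 was 0.31 (0.26 and 0.36 by orientation) and that for AGO3 0.23 (0.34 and 0.12). For DROSHA it was -0.25 (-0.22 and -0.28) and for the TNRC6A probe A_23_P349310 -0.13 (-0.06 and -0.20). AGO4, at -0.01 (0.28 and -0.29), and AGO1, at 0.09 (0.33 and -0.16) and -0.02 (-0.30 and 0.27) for its probes, had orientations of opposite sign.

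DICER1 showed the largest IP/T differences among the 12 retained probes of the machinery, 0.96 (0.23 and 1.69) for A_23_P37111 and 0.66 (0.96 and 0.36) for A_24_P22163. The first of these rested on the Cy5 labelling of miR-155-sp total, which was not well above background: with the Cy3 labellings alone it was 0.27. After normexp with loess it was -0.19, the opposite sign, while A_24_P22163 stayed at 0.49. For TNRC6B A_32_P6415 the difference of 0.63 (0.58 and 0.68) likewise became -0.12 after that correction, and the value for AGO1 A_23_P11764 became -0.07.

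In total RNA, the signals of TNRC6A, TNRC6B and DICER1 were lower in sponge cells than in EV cells in both labellings for all 8 of their probes, a grouping that was chosen after the values were seen. Of the 12 retained probes of the machinery 7 were lower in both labellings (these genes and AGO2; background 32.9%) and 4 were higher (AGO1, AGO3 and DROSHA; background 32.4%). The mean log2 difference ranged from -1.20 to -0.21 over these 8 probes with a median of -0.52. In sponge total, 4 of the 8 were not well above background in Cy5. Of the 8 probes of the other 6 genes (TNRC6C left out), 1 was lower in both labellings, with a median of 0.05 and a range from -0.07 to 0.17. In bulk RNA, a lower level per cell and fewer cells that express a gene cannot be told apart.

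The TNRC6A probe A_23_P349310 was at -0.32 in total RNA (-0.47 in Cy3 and -0.17 in Cy5) and the TNRC6B probes A_23_P6481 and A_23_P6490 at -0.29 (-0.36 and -0.22) and -0.21 (-0.22 and -0.20). The DICER1 probe A_24_P22163 was at -0.45 (-0.49 and -0.41). All of these were well above background in both dyes and below 2-fold. DICER1 A_23_P37111, at -1.20 (-0.49 and -1.91), was the 1 retained probe of the machinery that was at least 2-fold lower, where the background was 0.274%. It did not pass 2-fold in Cy3, and its Cy5 signal in miR-155-sp total was not well above background. None of the 12 was 2-fold higher, where the background was 0.0893%.

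These differences in total RNA were smaller after normexp. With loess the DICER1 probes were at -0.12 (A_23_P37111) and -0.24 (A_24_P22163) and TNRC6A A_23_P349310 at -0.13. Of the 8 probes 6 were still below 0 with loess and 7 with quantile normalization. A_32_P6415 of TNRC6B, which read -0.73 in the main processing, was at 0.08 with quantile normalization. In the IP, 5 of the 6 retained probes of these genes had a lower mean signal in sponge cells, 4 were lower in both labellings and 0 higher in both. The share of all retained probes that were lower in the IP was not computed, so these counts have no background beside them. The median log2 IP difference over all retained probes was -0.007. TNRC6A A_23_P349310 was at -0.45 (-0.36 and -0.53) in the IP of miR-155-sp against EV cells, DICER1 A_23_P37111 at -0.24 (-0.22 and -0.25), and TNRC6B A_23_P6481, A_23_P6490 and A_32_P6415 at -0.18, -0.23 and -0.10. DICER1 A_24_P22163 was at 0.20, with labellings of opposite sign (-0.06 and 0.47). No retained probe of the machinery differed by 2-fold in the IP signal, with backgrounds of 0.151% higher and 0.0837% lower.

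The Argonautes and DROSHA showed smaller values in total RNA. AGO2 was at -0.07 (-0.02 in Cy3 and -0.11 in Cy5), AGO3 at 0.02 (0.02 and 0.02) and DROSHA at 0.08 (0.04 and 0.12). The AGO1 probes were at 0.10 and 0.17, higher in both labellings, and AGO4 at -0.06 with labellings of opposite sign (-0.35 and 0.22).

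**Figure D4:**
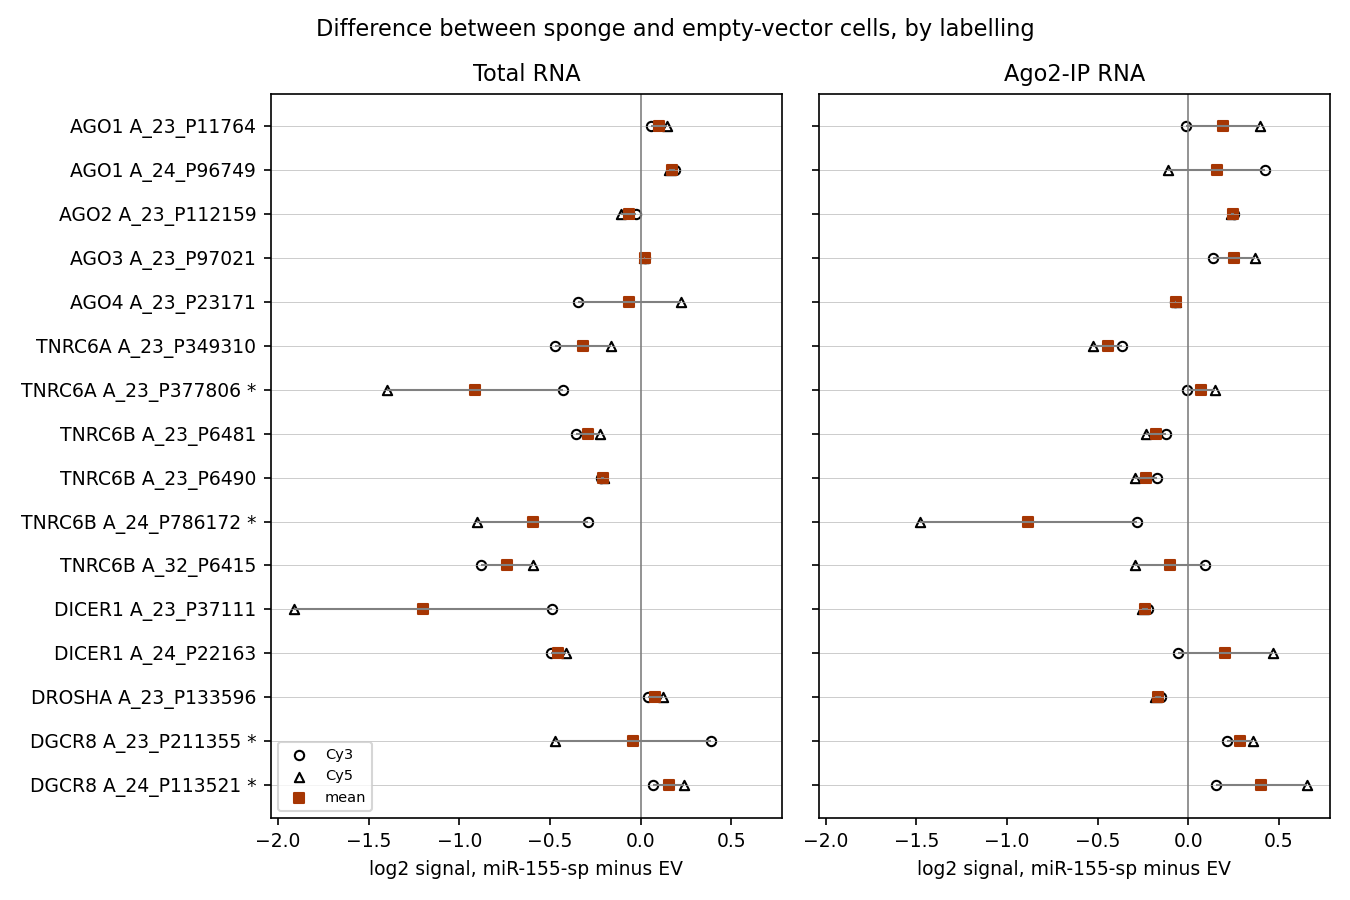
Log2 signal in miR-155-sp minus EV cells (x axis) in total RNA (left) and Ago2-IP RNA (right) for the 16 probes above background in any channel (y axis), with the Cy3 and Cy5 labellings as open symbols and their mean as a square, and an asterisk on probes not retained. In total RNA all 8 probes of TNRC6A, TNRC6B and DICER1 lie left of 0 in both labellings, whereas the means of the other 8 probes lie between -0.07 and 0.17.

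For comparison, 62 other genes of the pathway were listed by role, of which 59 were matched to 110 probes on the array and 53 had 91 retained probes. Their median log2 IP/T in EV cells was -0.09, beside -0.24 over all retained probes, and 11 of the 91 had a ratio of 2 or more in EV cells, again beside the background of 14.8%. Among these genes, none of the 12 retained probes for partners of the Microprocessor (such as DDX5 and DDX17), of the 4 for nuclear export (XPO5 and RAN) and of the 21 for the chaperones that load Argonaute (such as HSP90AA1 and HSPA8) reached 2-fold. The count was 2 of 5 for double-stranded RNA-binding proteins grouped with DICER1. These were the probes of TARBP2 and of the editing enzyme ADARB1, while the retained probes of PRKRA and ADAR had ratios below 1. It was 4 of 24 for proteins associated with the silencing complex and 2 of 9 for the effectors that TNRC6 proteins recruit. For enzymes of pre-miRNA and miRNA tailing and decay it was 3 of 15. Of the Piwi clade, the germline relatives of the Argonautes, 1 probe (PIWIL4) was retained. Its log2 IP/T in EV cells was -0.63, with orientations of opposite sign (-1.33 and 0.06). In total RNA, 27 of the 91 probes (29.7%) were lower in sponge cells in both labellings and 33 (36.3%) were higher. The backgrounds were 32.9% and 32.4%. Those lower included probes of PABPC1, PUM2, FMR1, FXR1 and TUT4, so lower total RNA was not limited to TNRC6A, TNRC6B and DICER1.

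Of these 91 probes, 7 (7.69%) had a ratio of at least 2 in both dye orientations in EV cells, below the background of 12.3%. A ratio under 0.5 in both was found for 1 probe, and no background was computed for that count. XRN1, the 5′ to 3′ exonuclease that degrades decapped mRNA, was at 4.92 (3.71 and 6.53) in EV cells and 6.24 in sponge cells, with the Cy5 labelling of T not well above background in either population. PAN3 and CNOT9, subunits of the deadenylases that bind TNRC6 proteins, were at 3.12 (2.65 and 3.69) and 2.62 (3.39 and 2.03) in EV cells and at 2.78 and 1.81 in sponge cells, the latter under 2-fold. TENT2, a poly(A) polymerase that extends miRNA ends, was at 3.19 (2.69 and 3.78), and at 3.14 in sponge cells.

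TARBP2, a double-stranded RNA-binding partner of DICER1, had orientations that nearly coincided in EV cells, 2.26 (2.26 and 2.27). In sponge cells they lay further apart, 2.23 (2.50 and 1.998), with 1 of them just under 2. ADARB1, an adenosine deaminase that edits double-stranded RNA, was at 2.28 (2.21 and 2.35), and at 2.56 in sponge cells. One probe of ELAVL1, an mRNA-binding protein, was at 2.18 (2.32 and 2.05) in EV cells and at 1.99 in sponge cells, while its other retained probes were below 1. The low value was that of ZSWIM8, the ubiquitin ligase adaptor of target-directed miRNA decay, at 0.431 (0.497 and 0.375) in EV cells and 0.609 in sponge cells, with the Cy5 labelling of the IP not well above background in either population.

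**Figure D5:**
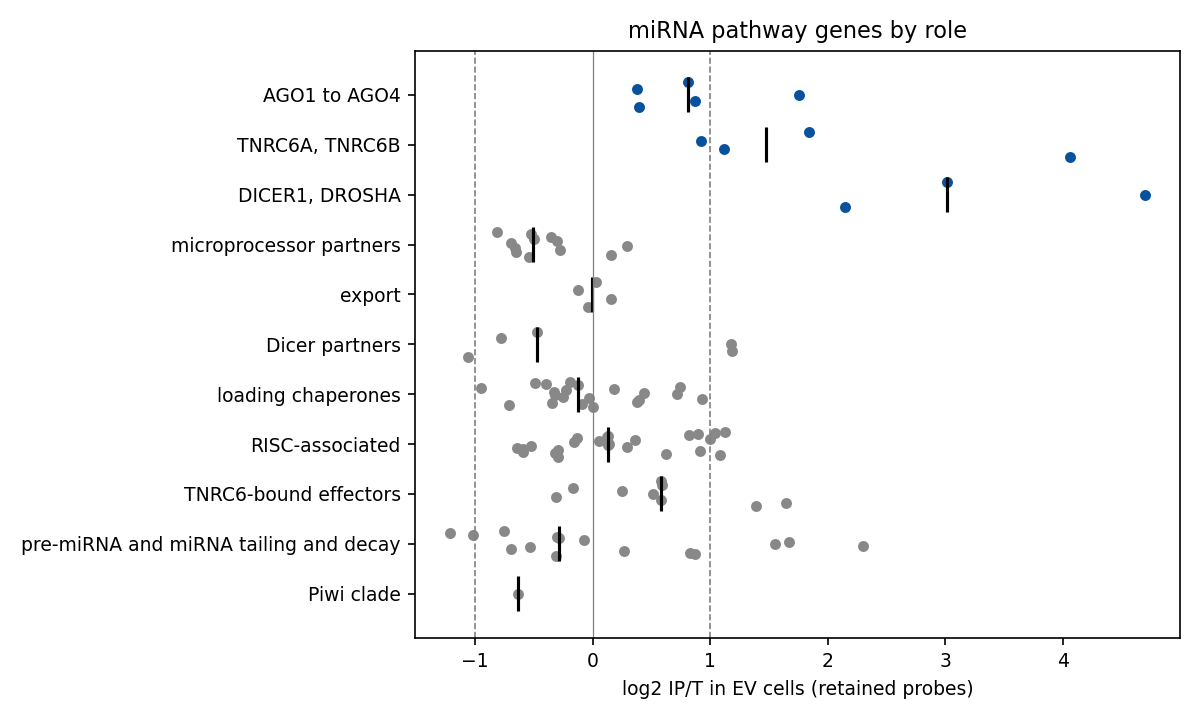
Log2 IP/T in EV cells (x axis) of the retained probes by role (y axis), 1 point per probe with the median of each role as a black bar and dashed lines at 2-fold. Blue marks the 8 genes described here that had a retained probe, and grey the other genes of the pathway. DGCR8 and TNRC6C, with no retained probe, have no point. The blue points lie between 0.37 and 4.70, and most grey points lie between the dashed lines.

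The probes whose pattern was closest to that of AGO2 were found by the Euclidean distance over the 8 channel values, each centred on its own mean, among 10073 named probes well above background in all channels. The nearest were NDC1 (distance 0.17 on the log2 scale), USP42 (0.19), ZNF576 (0.20), HSPH1 (0.22) and FAM98A (0.24). Their IP/T ratios ranged from 1.30 to 1.43 in EV cells and from 1.53 to 1.71 in sponge cells.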

How the data were processed

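Total and Ago2-IP RNA of EV and miR-155-sp KM-H2 cells was hybridized to 2-color Agilent human whole genome arrays, as 4 arrays with dyes swapped, so that 8 channels hold 4 samples. Both labellings come from 1 RNA and were counted as 1 sample, and no p-value was computed. Per the file headers, the authors made the spot intensity values with Agilent Feature Extraction 10.7.3.1 (the submitters' processing notes name 10.5.1.1), with background subtraction and dye normalization inside each array. Both samples of an array carry the same scanner file, from which only the channel holding the sample's RNA was read. The authors also deposited log2 values of 16065 probes. These differed from the values computed here by a median of 0.000557, 16057 of their probes were retained here, and they hold all 12 retained probes of the machinery. Their medians were 9.71 to 9.72 per column.

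Control spots and outlier spots (74 to 100 gene spots per channel, of 43376) were removed, and saturation affected none of the gene spots. Repeated spots of a probe were averaged (264 probes with 10 spots each). The log2 processed signals of 40981 probes were quantile-normalized over the 8 channels, as in the study's methods. Probes were kept if well above background in at least 4 channels (22538) and within 2-fold between labellings in all samples (17912). IP/T is the mean log2 IP minus the mean log2 T. It is scaled to the whole array, says nothing of absolute amounts, and near background can be inflated or compressed.

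Probes were named through identifiers in a RefSeq gene table of GRCh38.p14, which matched 23958 probes to 1 gene. The arrays were designed on another build, so no coordinates of probes or of the 10 genes are printed, and that of miR-155-5p is of the RefSeq build. A gene's probes were kept apart. Genes named were all probes of the 10 genes, the listed companions past a ratio of 2 or under 0.5 in both dye orientations in EV cells (at most 12), and the 5 probes nearest to AGO2. The gene set (a choice by name), the lists and the rules were chosen with earlier results of these data known. Other groupings are marked where they appear.

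Alternatives were a common median, limma's normexp (offset 50) followed either by loess and Aquantile or by quantile normalization, the deposited values, other filters (all 8 channels, none, labellings within 1.5-fold or unfiltered), single labellings, single orientations and arithmetic means. Normexp was run with limma 3.58.1 in R 4.3.3, and all else in Python 3.11.15 with numpy 2.4.6, pandas 2.3.3 and matplotlib 3.10.9. The code was tested on simulated data. The number of arrays limits the precision, and 0 columns of other samples were left aside.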

Additional observations from a re-analysis of the deposited data

Results flagged for a closer look

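The 10 spike-in controls, outside the main measurement, moved between the populations. Their log2 IP/T relative to the gene probes had a median of 0.10 (EV) or 1.51 (sponge cells), with a median difference of 1.58 (range 1.22 to 1.68). In miR-155-sp cells the spike-ins thus lay above the median gene in the IP relative to T. Relative to the gene probes, their log2 signal was 1.55 to 1.79 higher in the IP of sponge cells than in that of EV cells. In T it was 0.01 to 0.36 higher, so most of the difference lay in the IP. The values of AGO2, DICER1 and the other genes are given relative to all gene probes, and the part of the spike-in difference in them was not tested.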

How the results depend on the processing

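No paired analysis was possible because each group is 1 RNA, labelled in both dyes (ratios within single arrays are those given by dye orientation). Of 760 values of single probes under an alternative, 645 moved by less than the spread between labellings, 115 moved by more and 0 changed sign after being past 2-fold. This tally does not measure stability, because many of the 645 could not have moved by more. The filters leave the value of a single probe as it is, and a single orientation always lies within that spread of the mean. The tally also includes the TNRC6C probe, which was not well above background in any channel. The 7 enriched probes (≥2-fold) of EV cells and the 7 of sponge cells became 3 and 3 with normexp and loess, 4 and 4 with detection in all 8 channels, and 3 and 3 with labellings within 1.5-fold. DROSHA and TNRC6A A_23_P349310 were among them in every case. Under normexp with loess 5.99% of all retained probes had such a ratio in EV cells. With detection in all 8 channels it was 12.7%, and with labellings within 1.5-fold 14.4%. Both of these filters lower the counts only by removing probes, since they leave the values unchanged. Probes with an IP/T of 0.5 or less in EV cells numbered 1 (DGCR8) without the filter on labellings, against 0. A 2-fold difference of IP/T between populations, absent in the main processing, was found for 1 probe with a common median and for 1 with the IP in Cy3 alone, and single labellings gave 0 to 1. The 1 probe 2-fold lower in total RNA (DICER1) fell to 0 with either normexp setting and with the IP in Cy5 alone, and single labellings gave 0 to 1. The count was also 0 with detection in all 8 channels and with labellings within 1.5-fold, as these filters removed the probe. The 11 companion probes became 4 with normexp and loess and 2 with normexp and quantile normalization. They became 7 with labellings within 1.5-fold, where the others were removed by the filter. The count of TNRC6A, TNRC6B and DICER1 probes lower in total RNA, a result added after seeing the data, was 6 of 8 and 7 of 8 with the normexp settings. Dim probes, with Cy5 signals of T near background, limit the ratios of AGO4, TNRC6B A_32_P6415, DICER1 A_23_P37111 and XRN1. With 1 sample per group, no difference has a replicate check.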
